A study of Oryzias latipes with 84 samples.

Results

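CD74 (ENSORLG00000004913) is the medaka gene of the MHC class II invariant chain. It is 1 of the 24364 entries of the deposited count table and was chosen by its identifier, with its levels by sex, age and body length in view. These levels are therefore a description here, with no test. The levels come from bulk RNA-seq of 84 single pituitaries of Japanese medaka (Oryzias latipes), 68 of females and 16 of males, each of a separate fish. All fish carried the lhb:GFP transgene on the d-rR background, in which the promoter of the gene of the Lh β-subunit drives green fluorescent protein, and none was treated. They shared 1 aquarium regime and 1 daily sampling window. The females fall into 10 age classes by their labelled days post-fertilization (dpf), of 32 to 35 (n = 4), 37 to 39 (n = 4), 44 to 49 (n = 8), 53 to 59 (n = 9), 64 to 74 (n = 10), 79 to 92 (n = 10), 96 to 111 (n = 11), 131 to 179 (n = 6), 249 to 277 (n = 3) and 375 dpf (n = 3). The males were labelled 38, 57, 70 and 134 dpf (n = 4 each). For most of the males labelled 134 dpf, the methods of the study give a lower age than the label.

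The invariant chain binds newly made MHC class II molecules in the endoplasmic reticulum, fills their peptide groove and guides them to the endosomal compartments where they receive peptide. In mammals, it is made mainly by professional antigen-presenting cells, such as macrophages, dendritic cells and B cells, and it also acts at the cell surface as a receptor for macrophage migration inhibitory factor. In a pituitary, most cells are hormone producers, with resident macrophages and blood-borne cells among them. A level in whole pituitary RNA cannot tell fewer cells of a type from less RNA per cell.

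The RefSeq annotation of the ASM223467v1 assembly has 1 entry named cd74, on chromosome 10 from 16330977 to 16334739, a span of 3763 bp. It was matched by name only, since RefSeq and the count table share no identifier for medaka. CD74 was counted in every library, with 909 to 40575 counts, while total counts ranged from 2424546 to 9348785 (median 6493890). The 8 hormone genes of the pituitary were also counted in every library and made up 1.48 to 38.1% of its counts. The counting error of a single CD74 level is therefore small beside the differences between fish. The level is given in CPM, the counts scaled to a common library total, which have not been divided by gene length, so that they compare fish and not genes.

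Over all 84 fish, CD74 lay between 177 and 6436 CPM, with a median of 377 CPM. The median of the 68 females was 374 CPM and that of the 16 males 418 CPM. Only 9 fish exceeded 1000 CPM, 7 of them females, and 5 of these 7 belonged to the 12 females of 131 dpf or older. Most pituitaries thus sat below 1000 CPM, and those above it were some of the older females and a few single fish.

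In the youngest females, of 32 to 35 dpf, CD74 was at 177, 212, 232 and 482 CPM. At 37 to 39 dpf it was at 251, 292, 345 and 379 CPM, and at 44 to 49 dpf the 8 females ran from 293 to 375 CPM with a median of 320 CPM. The 9 females of 53 to 59 dpf were as closely spaced, from 259 to 358 CPM with a median of 306 CPM. The coefficient of variation between fish was 9.65% at 44 to 49 dpf and 11.0% at 53 to 59 dpf, the smallest of all classes in CPM. With the hormone genes taken out of the total, it was 12.9% and 13.5%, against 8.68% in males of 134 dpf. With TMM factors, which scale each library by the bulk of its genes, the females of 53 to 59 dpf ran from 236 to 413 CPM.

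The classes then widened. At 64 to 74 dpf CD74 ran from 243 to 763 CPM (median 371 CPM, n = 10), and at 79 to 92 dpf from 305 to 2203 CPM (median 385 CPM, n = 10), where the highest value belongs to a single fish. The 11 females of 96 to 111 dpf spanned 358 to 1097 CPM, with a median of 623 CPM. The 6 females of 131 to 179 dpf spread the most among the older classes, at 306, 548, 621, 985, 1548 and 1550 CPM. Their lowest fish lay at the level of the females of 53 to 59 dpf, and the coefficient of variation of the class was 57.1%.

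The oldest females were all higher than those of 32 to 59 dpf. CD74 was at 809, 884 and 1097 CPM in the 3 females of 249 to 277 dpf and at 624.7, 1238 and 1518 CPM in the 3 females of 375 dpf. With both classes joined, the 6 females of 249 to 375 dpf (median 990 CPM) all lay above all 25 females of 32 to 59 dpf (177 to 482 CPM, median 312 CPM), with a ratio of medians of 3.18. Of 20063 genes with a median of at least 1 CPM, 0.967% were likewise higher in all of these older females. The separation held with the hormone genes taken out of the library total (804.7 to 2058 against 212 to 571 CPM) and with TMM factors, which scale each library by the bulk of its genes (583 to 1394 against 188 to 446 CPM). In CPM, the 6 females of 249 to 375 dpf overlapped those of 131 to 179 dpf (306 to 1550 CPM), with a ratio of medians of 1.23.

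**Figure D1:**
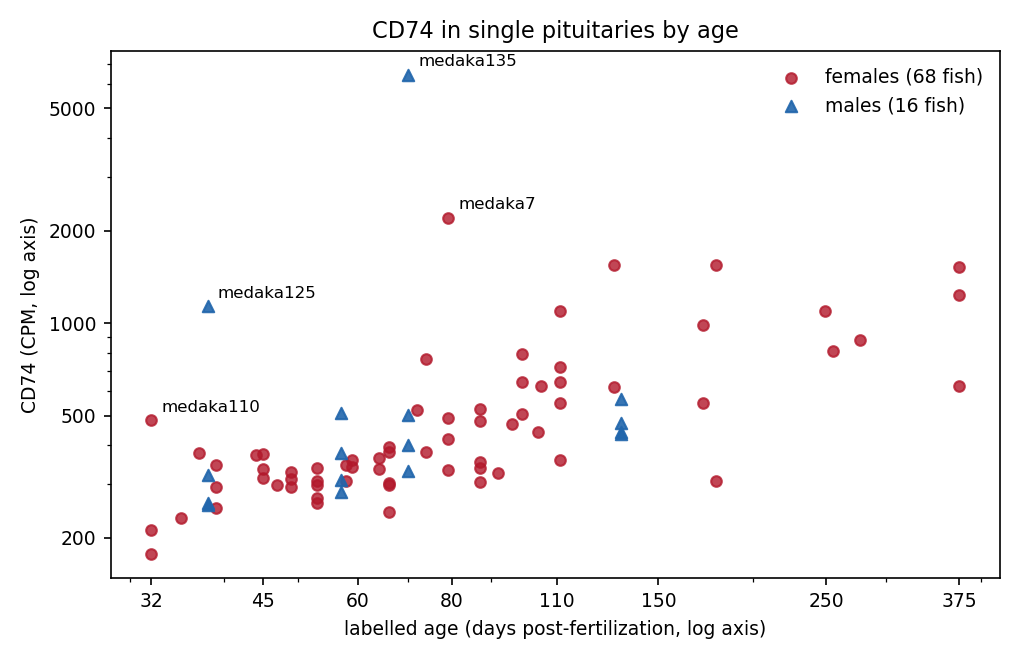
CD74 in each of the 84 pituitaries (CPM, log axis) against the labelled age in days post-fertilization (log axis), with 68 females as circles and 16 males as triangles. The 6 females of 249 to 375 dpf lie between 624.7 and 1518 CPM, above all 25 females of 32 to 59 dpf, and 4 named fish stand above the others of their class.

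Between the middle classes, the outcome depended on the scale. In CPM, all 11 females of 96 to 111 dpf lay above all 9 females of 53 to 59 dpf (358 to 1097 against 259 to 358 CPM, ratio of medians 2.04), by a margin of less than 1 CPM between the nearest fish. Of the 20063 genes, 0.00498% were higher in this way, which is CD74 itself. The pair of classes was picked after the values were seen. With hormone genes left out of the total, 10 of the 11 females lay above all those of 53 to 59 dpf (ratio of medians 1.78), and with TMM factors 9 of 11 did (ratio 1.59).

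Ordered by their median, the classes ran from females of 32 to 35 dpf (222 CPM) and males of 38 dpf (290 CPM) through females of 53 to 59 (306 CPM), 37 to 39 (319 CPM) and 44 to 49 dpf (320 CPM). Then followed males of 57 dpf (342 CPM), females of 64 to 74 (371 CPM) and 79 to 92 dpf (385 CPM), and males of 70 (451 CPM) and 134 dpf (458 CPM). The 4 classes with the highest medians in CPM were all of females, in the order of age. They were those of 96 to 111, 131 to 179 (803 CPM), 249 to 277 (884 CPM) and 375 dpf (1238 CPM). The ranges of any 2 neighbours in this order overlapped, so that the order of neighbours is within the spread between fish. It also depended on the scale. With TMM factors, females of 131 to 179 dpf had a higher median than those of 249 to 277 dpf (700.3 CPM). Males of 70 dpf then had a higher median than females of 96 to 111 dpf (584 CPM). With the hormone genes taken out of the total, the same 4 classes were highest, in the order of age.

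Age and body length rise together in the females (Spearman rank correlation 0.77 over 68 fish), and CD74 was higher along both. Its rank correlation was 0.73 with age and 0.56 with length. Without the single highest female these were 0.75 and 0.62 (n = 67), and without the 6 females of 249 to 375 dpf 0.67 and 0.46 (n = 62). In the 16 males, the rank correlation was 0.47 with age and 0.45 with length. These are descriptions, as age and length were part of the choice of the gene.

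By length, the 18 females of 9.5 to 12.5 mm had a median of 301 CPM, although they also held 2 of the highest values, 1097 and 2203 CPM. The 23 females of 13 to 16 mm had a median of 358 CPM and the 15 of 16.5 to 20 mm one of 492 CPM. The 12 females of 21 to 29 mm, all of 131 dpf or older, had a median of 934 CPM, with a range of 306 to 1550 CPM. Among the males, the longest fish stayed low, as the 3 males of 134 dpf with 26 to 28 mm were at 434, 442 and 474 CPM.

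**Figure D2:**
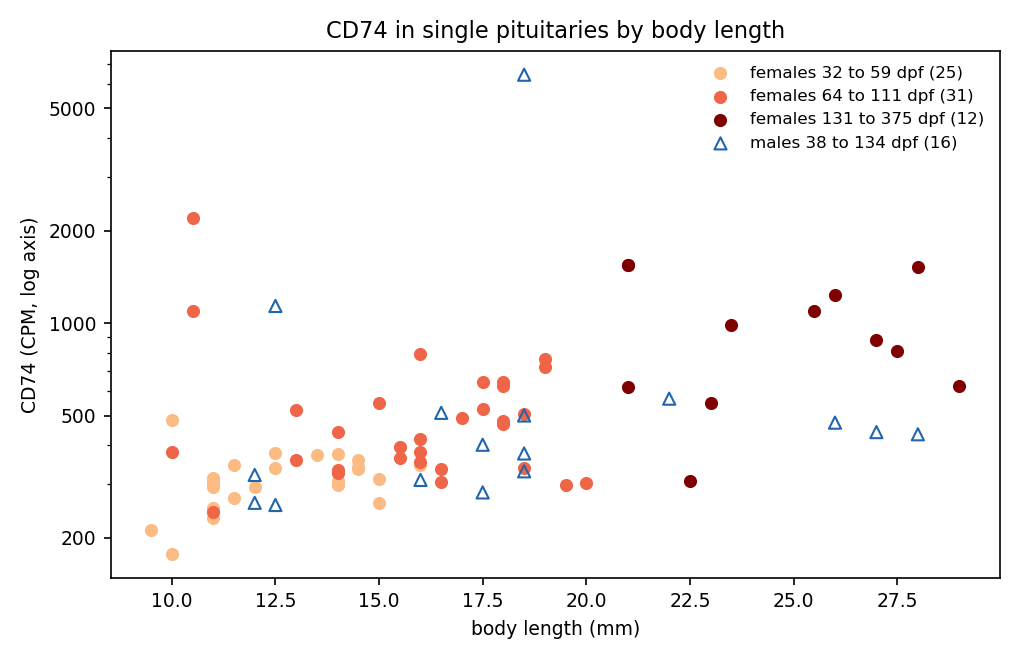
CD74 (CPM, log axis) against body length in mm for every fish, with the females in 3 shades by age and the males as open triangles. The 12 females of 131 to 375 dpf occupy the lengths above 20 mm, and 2 short females of 64 to 111 dpf stand at 1097 and 2203 CPM among other females of 9.5 to 13 mm at 177 to 520 CPM.

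A joint edgeR fit of length and log2 age over the 68 females gave CD74 a log2 slope of 0.97 (standard error 0.15) per doubling of age and of -0.08 (standard error 0.03) per mm of length. Fitted alone, length had a positive slope of 0.06 (standard error 0.02), and age one of 0.60 (standard error 0.08). The negative slope on length rested largely on medaka7, a female of 79 dpf and 10.5 mm, since without it the joint fit gave -0.02 (standard error 0.03) per mm and 0.69 (standard error 0.13) per doubling of age. Without the females of 249 to 375 dpf, the slope on age was 0.99.

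Fish of 1 labelled age but different length show CD74 apart from age. At 53 dpf the 5 females lay within 259 to 336 CPM, and the longest of them, of 15 mm, was the lowest. At 66 dpf the females of 10, 11, 15.5, 19.5 and 20 mm were at 381, 243, 394, 298 and 301 CPM, so that the shortest and the longest fish differed little. At 87 dpf lengths of 16 to 18.5 mm went with 305 to 524 CPM.

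At 2 later ages, the shortest fish was the highest. At 79 dpf the female of 10.5 mm had 2203 CPM, while those of 14, 16 and 17 mm had 333, 418 and 492 CPM. At 111 dpf the female of 10.5 mm had 1097 CPM, while those of 13, 15, 18 and 19 mm had 358, 547, 641 and 717 CPM. Among the remaining fish of both ages, CD74 in CPM was higher in each longer fish. With TMM factors this did not hold at 111 dpf, where the females of 18 and 19 mm were at 750 and 702 CPM. These are 1 fish per length, with no replicate.

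**Figure D3:**
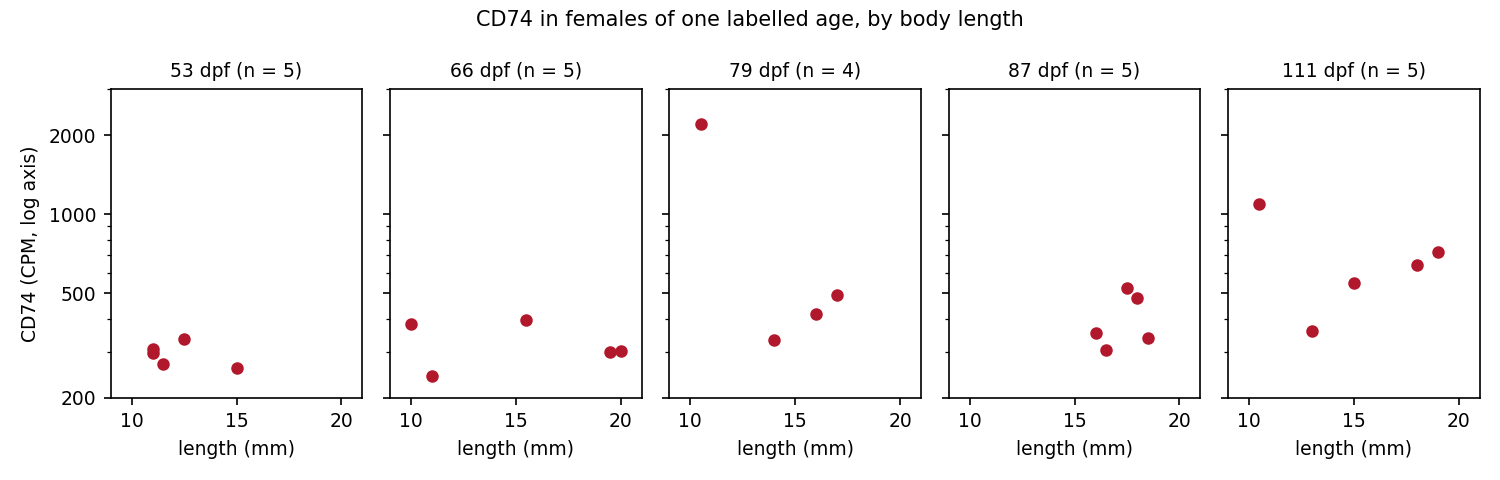
CD74 (CPM, log axis) against body length in mm in females that share a labelled age, with 1 panel for each of 53, 66, 79, 87 and 111 dpf and 1 point per fish (n = 4 or 5). The shortest female is the highest at 79 dpf (2203 CPM) and at 111 dpf (1097 CPM), while at 53 dpf all 5 fish lie within 259 to 336 CPM.

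In the males, CD74 was at 256, 260, 320 and 1137 CPM at 38 dpf and at 281, 309, 376 and 510 CPM at 57 dpf. At 70 dpf it was at 329, 402, 500 and 6436 CPM, and at 134 dpf at 434, 442, 474 and 567 CPM. Apart from 1 fish each at 38 and 70 dpf, the males thus stayed within 256 to 567 CPM. Males of 134 dpf overlapped males of 38 dpf (ratio of medians 1.58). Without the high fish of 38 dpf all 4 males of 134 dpf lay above the other 3 in CPM (ratio 1.76), as did 16.5% of the 20063 genes, and with TMM factors 3 of 4 did.

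Between the classes nearest in age, females and males overlapped in every pair. The ratio of the medians, females over males, was 1.098 for females of 37 to 39 against males of 38 dpf, 0.894 for 53 to 59 against 57 dpf and 0.823 for 64 to 74 against 70 dpf. It was 1.75 for females of 131 to 179 against males of 134 dpf, where 4 of the 6 females lay above all 4 males. Most of these females were labelled 172 or 179 dpf, so that sex and age cannot be told apart here. The 6 females of 249 to 375 dpf all lay above the 4 males of 134 dpf in CPM (624.7 to 1518 against 434 to 567 CPM, ratio of medians 2.16), as 8.07% of the 20063 genes did. With TMM factors, 4 of these 6 females lay above all males (ratio 1.67). As no male was as old, sex and age cannot be told apart in this last comparison either.

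In edgeR fits of each pair of classes with TMM factors, the log2 fold change of CD74 was -0.78 (standard error 0.50) in females of 37 to 39 dpf relative to males of 38 dpf. It was -0.51 (standard error 0.22) for 53 to 59 against 57 dpf, -2.89 (standard error 0.59) for 64 to 74 against 70 dpf and 0.60 (standard error 0.37) for 131 to 179 against 134 dpf. The value at 70 dpf was set by 1 male, as without it the fold change was -0.62 (standard error 0.30). Likewise, the value at 38 dpf was 0.05 without the high male of that class. With body length as a covariate, the value for 37 to 39 against 38 dpf was -0.24 (standard error 0.69) and that for 131 to 179 against 134 dpf 0.14 (standard error 0.60), while the other pairs were at -0.51 and -2.76. For males of 134 against males of 38 dpf, the fold change was -0.11 (standard error 0.48), and 0.72 (standard error 0.28) without the high male of 38 dpf.

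**Figure D4:**
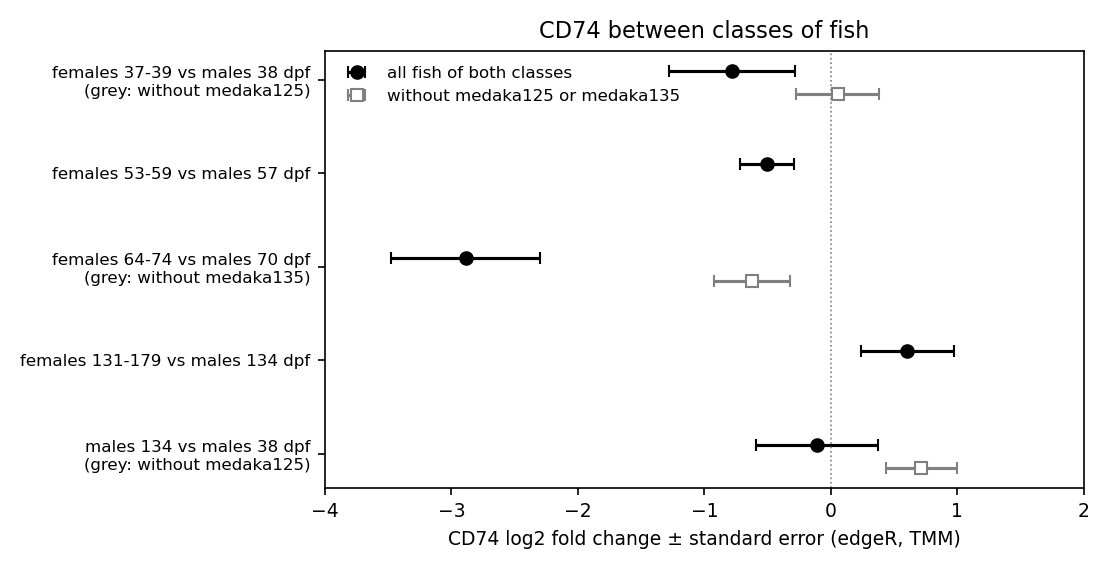
Log2 fold change of CD74 between classes of fish, the first-named class over the second, with an approximate standard error derived from the edgeR F statistic (TMM factors). Black points use all fish of both classes, and grey squares leave out medaka125 (males of 38 dpf) or medaka135 (males of 70 dpf), which shifts the fold change of females of 64 to 74 over males of 70 dpf from -2.89 to -0.62.

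Scaling by total counts alone moved the median over all genes tested to 0.34, against 0.06 with TMM factors, for females of 53 to 59 over males of 57 dpf. For females of 64 to 74 over males of 70 dpf this median moved to 0.64, against 0.05, and for 131 to 179 over 134 dpf to 0.38, against 0.06. Relative to the median gene, CD74 differed by -0.58, against -0.57 with TMM factors, at 57 dpf, by -2.92 against -2.94 at 70 dpf, and by 0.57 against 0.54 at 134 dpf. A change of scaling shifts all genes of a fit by nearly the same amount. The closeness of these values therefore follows from the calculation and is no separate check of CD74.

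Single fish far above their class shaped several of these values. Medaka135, a male of 70 dpf and 18.5 mm, had 6436 CPM, 16.0 times the median of the other 3 males of its class. Medaka7 had 2203 CPM, 6.26 times the median of the other 9 of its class (305 to 524 CPM). Medaka125, a male of 38 dpf and 12.5 mm, had 1137 CPM, 4.38 times the median of the others, and medaka110, a female of 32 dpf and 10 mm, had 482 CPM, 2.28 times.

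The other measures of these libraries went along with CD74 in different ways. Counts of the 8 hormone genes made up 9.00% of the library of medaka135, against 31.8 to 35.8% in the other males of 70 dpf, and 1.48% of that of medaka7, against 19.1 to 38.1% in the other females of its class. The globin genes gb and hbbe2 mark red blood cells. In medaka125 gb was at 23105 CPM, against 246 to 2967 CPM in the other males of 38 dpf, and in medaka110 at 21673 CPM, against 941 to 4063 CPM in its class. In medaka135 gb was at 836 CPM, against 831 to 1775 CPM in its class, and in medaka7 at 3045 CPM, within the 248 to 5025 CPM of its class. A small hormone share or high gb also occurred without high CD74. Medaka126, a male of 38 dpf, had a hormone share of 5.60% with CD74 at 260 CPM. Medaka26, a female of 66 dpf, had 9.06% with CD74 at 381 CPM. In medaka103, a female of 39 dpf, gb was at 17370 CPM and CD74 at 292 CPM.

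The RNA integrity number was 7.7 in medaka7, below the 8.4 to 10 of the other 8 females of its class with a value, and 9.6 in medaka135, against 9.8 to 10 in its class. The total counts of medaka7 and medaka135 were 4.67e+06 and 6.30e+06. What part the smaller share of hormone RNA, the blood or the RNA quality had in the high CD74 of these fish was not tested. With the hormone genes taken out of the total, which raises the CPM of every fish, medaka135 was at 7073 CPM, against 482 to 779 CPM in the other males of its class, and its multiple of their median was 11.7 in place of 16.0. Medaka7 was at 2237 CPM, against 377 to 847 CPM, and its multiple was 4.65 in place of 6.26.

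MHC class II molecules are the partners of the invariant chain, and the study names 2 genes of their α-chains, orla-DCA (ENSORLG00000000021) and orla-DFA (ENSORLG00000026405). They were not used to choose CD74. They were named with earlier results of these data known, so the permutation p-values of their relation to CD74 are not independent of that choice. Both had few counts, and as members of a multigene family they may have shared reads with near-identical copies, so that their levels are uncertain.

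In medaka135, orla-DCA had 648 counts (102.8 CPM), against 14, 17 and 19 counts in the other males of 70 dpf, 55.8 times their median in CPM. In medaka7 it had 241 counts (51.6 CPM), 30.5 times the median of the other females of its class, which had 0.668 to 4.03 CPM. In medaka125 it had 90 counts (12.5 CPM), 17.4 times the median of the others, and in medaka110 59 counts (10.7 CPM), 13.6 times. Each of these 4 fish stood above its class in orla-DCA by a larger factor than in CD74. This was not so for every fish that was highest in CD74 in its class. Medaka54, a female of 74 dpf, had 763 CPM of CD74, 2.11 times the median of the others. Its orla-DCA was 4.64 CPM, 1.68 times their median and within their 1.61 to 8.04 CPM. Medaka67, the female of 111 dpf with 1097 CPM of CD74 (1.87 times), had 10.3 CPM of orla-DCA (3.16 times). Its factor was thus larger in orla-DCA as well, but its level was within the 2.07 to 13.7 CPM of the others.

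Across the 68 females, CD74 and orla-DCA, both as log2(CPM + 1), correlated with a Pearson r of 0.68 and a Spearman rho of 0.63 (permutation p = 1e-05 for both, the smallest that 100000 permutations can give, adjusted p = 8e-05 over 8 measures). Without the 2 fish farthest from the median of orla-DCA, r was 0.61. As deviations from the mean of the age class, with permutation within classes, r was 0.68 and rho 0.50 (adjusted permutation p = 8e-05 and 0.00128). Without medaka7, r and rho were both 0.61. Median orla-DCA was 2.69 CPM at 53 to 59 dpf, 4.44 CPM at 249 to 277 dpf and 5.26 CPM at 375 dpf. In medaka114, medaka118 and medaka115, females with 1550, 1548 and 1518 CPM of CD74, orla-DCA was at 6.63, 5.75 and 5.26 CPM.

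In the 16 males, r was 0.97 and rho 0.87 (permutation p = 1e-05 and 6e-05, adjusted p = 8e-05 and 0.00048). It remained at 0.80 for both without the 2 fish farthest from the median of orla-DCA, and at 0.90 and 0.84 without medaka135. As deviations from the class mean, r was 0.97 and rho 0.91 (adjusted permutation p = 0.0186 and 0.0201). The relation of CD74 to orla-DCA was thus present in both sexes, within age classes with all fish kept, and over all ages without the highest fish. Within age classes without the highest fish it was not computed.

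**Figure D5:**
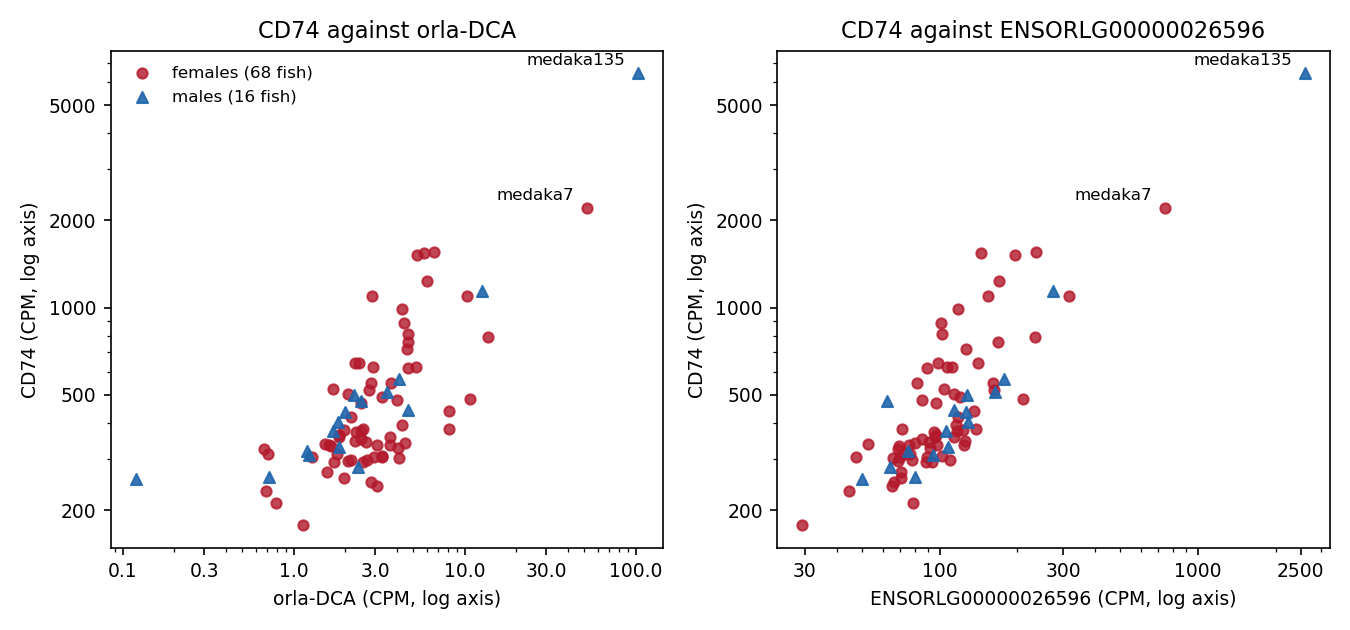
CD74 (CPM, log axis) in each fish against orla-DCA (left, CPM, log axis) and against ENSORLG00000026596 (right, CPM, log axis), with 68 females as circles and 16 males as triangles. Medaka135 and medaka7 are highest on both axes of both panels. Spearman rho for orla-DCA is 0.63 in females and 0.87 in males. Fish of 1 CD74 level differed in orla-DCA, as medaka123 and medaka67, both at 1097 CPM of CD74, had 2.86 and 10.3 CPM.

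For orla-DFA the relation was weaker. In the females, r was 0.33 (adjusted permutation p = 0.0165) and rho 0.21 (adjusted permutation p = 0.128), and r fell short of the threshold as deviations from the class mean (0.25, adjusted permutation p = 0.125). In the males, r was 0.71 (adjusted permutation p = 0.0632) and rho 0.29 (adjusted permutation p = 0.655). Medaka135 had 156 counts of orla-DFA, against 0, 0 and 1 in the other males of 70 dpf.

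The remaining 6 measures gave smaller correlations with CD74 than orla-DCA did. In the females, r was -0.09 with gb, -0.05 with hbbe2, -0.24 with the share of the hormone genes and 0.21 with the RNA integrity number (n = 57), none past the adjusted threshold. It was -0.31 with the total count (adjusted permutation p = 0.0225) and 0.34 with the number of genes detected after thinning to equal depth (adjusted permutation p = 0.0165), and neither passed in Spearman's rho (-0.26 and 0.24) or as deviations from the class mean (-0.25 and 0.15). Without medaka7, r of these 2 measures in the females passed, at -0.28 and 0.38 (adjusted permutation p = 0.037 and 0.00704). Without the 2 fish farthest from the median it passed too, at -0.37 and 0.29 (adjusted permutation p = 0.00732 and 0.0492). The RNA integrity number passed without medaka7 as well, with r 0.37 and rho 0.36 (adjusted permutation p = 0.0121 and 0.0268, n = 56). With all females kept, its r as deviations from the class mean was -0.04. In the males, none of the 6 other measures passed the adjusted threshold. Their r with the share of the hormone genes was -0.50 (adjusted permutation p = 0.154, n = 16). As deviations from the class mean, r was -0.65 and rho -0.68 for this share (adjusted permutation p = 0.164 and 0.170).

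The class II genes were tested between classes, as their levels were not used to choose CD74. They were named with earlier results of these data known, and orla-DCA correlates with CD74. These tests are therefore not independent of the choice. In edgeR fits with Benjamini-Hochberg adjustment over all genes tested, 0 of the 2 genes passed for females of 37 to 39 against males of 38 dpf, where 0% of all genes were called (2209 genes had a p under 0.05 before adjustment, and 383 were called by DESeq2), and 0 of 2 for 53 to 59 against 57 dpf (0.0355% of all genes called). For 131 to 179 against 134 dpf 0 of 2 passed (0.519% called), as did 0 of 2 for males of 134 against males of 38 dpf (7.03% called).

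For females of 64 to 74 against males of 70 dpf, where 18.5% of all genes were called, orla-DCA was lower in the females (log2 fold change -3.61, standard error 0.83, edgeR adjusted p = 0.0124). This call rested on medaka135, since without it the fold change was 0.21 (edgeR adjusted p = 0.766). For orla-DFA the direction turned with the same fish. It was not called with all males (-2.49, edgeR adjusted p = 0.105), and was higher in females without medaka135 (4.399, standard error 1.08, edgeR adjusted p = 0.00726), in a fit that called 23.7% of all genes and in which the 3 remaining males had 0, 0 and 1 counts. The fitted fold change of such low counts depends on the prior count and is no bound.

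In the joint fit over the females, orla-DCA fell with body length, with a log2 slope of -0.22 per mm (standard error 0.04, edgeR adjusted p = 2.76e-05), where 5.37% of all genes were called, and rose with age by 1.33 per doubling (standard error 0.23, edgeR adjusted p = 0.000137), where 1.8% were called. Fitted alone, neither passed, with -0.041 per mm (edgeR adjusted p = 0.208) and 0.26 per doubling of age (edgeR adjusted p = 0.229). Without medaka7 neither passed in the joint fit, with -0.10 per mm (edgeR adjusted p = 0.157) and 0.76 per doubling of age (edgeR adjusted p = 0.118). CD74 had the same signs in this fit, negative on length and positive on age. Orla-DFA was not called on either (slopes 0.01 and 0.09, edgeR adjusted p = 0.976 and 0.922).

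Among 20316 genes with a median of at least 1 CPM in the females, ENSORLG00000026596 had the pattern most like CD74, with a Spearman rho of 0.78 over the 68 females and 0.83 over the 16 males (rank 13). It was at 745 CPM in medaka7, against 52.8 to 119.5 CPM in the other females of its class, and at 2591 CPM in medaka135, against 107 to 128.1 CPM. As deviations from the class mean, rho was 0.79 in females and 0.91 in males. The gene carries no name in the table.

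The second was ENSORLG00000008691, also without a name, with rho 0.76 in females and 0.73 in males (rank 73). Within age classes, its likeness to CD74 in females was lower (0.43). By the same measure, orla-DCA held rank 29 in the females and rank 6 in the males, and orla-DFA rank 6163 and 3059. As these ranks come from the same libraries, scaled by the same totals, they are descriptions.

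Of the hormone genes, lhb, which encodes the β-subunit of Lh and whose promoter drives the transgene, was nearest to CD74 over the females (rho 0.69, rank 6), followed by cga, which encodes the α-subunit shared by gonadotropins and thyrotropin (0.57, rank 88). In the males lhb had a rho of 0.24 (rank 4019), and as deviations from the class mean it was at 0.28 in females and -0.19 in males. Within classes of females, orla-DCA was at 0.50 and ENSORLG00000026596 at 0.79 on the same measure. At the other end, pcsk2, a prohormone convertase gene, and oacyl had a rho of -0.49 and -0.48 in the females. As deviations from the class mean they were at -0.26 and -0.20 in females and at -0.71 each in males. The other melanotrope markers listed, crhbp and pax7, were at -0.25 and -0.23 over the females and at 0.12 and -0.55 over the males.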

How the data were processed

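Bulk RNA-seq was made from 84 single pituitaries, 1 per fish. The authors amplified cDNA with the Smart-SEQ HT kit, sequenced on an Illumina NovaSeq and aligned to medaka Hd-rR (Ensembl release 94), with adjusted 3′ exons and a GFP cassette added. They deposited raw counts, as whole numbers for each gene. Tools named by the submitters' processing notes are HTSeq 0.11.2, STAR 2.7.6a and SAMtools 1.10. The methods give HTSeq's intersection-nonempty mode for the single-cell alignments, while for these libraries neither the mode nor the strand setting is given in the sources used here. Reads of overlapping or antisense genes therefore cannot be separated, and without molecular identifiers PCR copies may be included.

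CPM was computed from all counts of a library, from those outside 8 hormone genes, and with TMM factors. Pairs of classes and the slopes on length and age were fitted in edgeR 4.0.16 (R 4.3.3) by the robust quasi-likelihood method after filterByExpr and TMM, with a Benjamini-Hochberg threshold of 0.05. The standard errors given for edgeR are approximate. Each is the absolute log2 fold change or slope divided by the square root of the F statistic. DESeq2 1.42.0 was an alternative. Correlations used log2(CPM + 1) with 100000 two-sided permutations, in Python 3.11.15 with numpy 2.4.6, scipy 1.17.1 and pandas 2.3.3. Plots were drawn with matplotlib 3.10.9. For genes detected, libraries were thinned to 2424546 counts.

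CD74 and all lists were chosen with earlier results of these data known. The genes named were CD74, 2 class II genes, 2 globin genes, the hormone genes, melanotrope markers, and the 2 genes most like CD74 by Spearman rho in females. The identifiers of the class II genes and CD74 were read from labels of the study's heatmap. A list of further antigen presentation genes by symbol could not be matched, as the RefSeq table paired 0 medaka entries with an Ensembl identifier. The fits were also run on simulated counts in which no single fish was set apart from its class. That run therefore does not cover fits with such a fish.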

Additional observations from a re-analysis of the deposited data

Results flagged for a closer look

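In each class of 4 to 10 fish, the highest or lowest fish was set against the gap to its nearest neighbour, for CD74, orla-DCA, orla-DFA and ENSORLG00000026596. Of 44 such sets 14 held a fish apart, where chance flags about 1 in 20 sets of normal values. The count cannot be read against that rate, since the values are skewed, CD74 was chosen with its levels known and ENSORLG00000026596 for its likeness to CD74. For CD74 these were medaka135 at 6436 CPM, medaka7 at 2203 CPM, medaka125 at 1137 CPM and medaka54, a female of 74 dpf and 19 mm, at 763 CPM, against 243 to 520 CPM in the other 9 females of its class.

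For orla-DCA they were medaka135 at 102.8 CPM, medaka7 at 51.6 CPM, medaka125 at 12.5 CPM, medaka110 at 10.7 CPM and medaka26, a female of 66 dpf, at 8.04 CPM. Medaka26 had 381 CPM of CD74, within its class. For ENSORLG00000026596 they were medaka135 at 2591 CPM, medaka7 at 745 CPM and medaka125 at 275 CPM. For orla-DFA they were medaka135 at 24.7 CPM and medaka103, a female of 39 dpf, at 4.95 CPM. The fish apart in ENSORLG00000026596 follow in part from its choice as the gene most like CD74. Medaka7, medaka125 and medaka135 stood apart in both CD74 and orla-DCA. Medaka54 stood apart in CD74 only of these genes, with 4.64 CPM of orla-DCA against 1.61 to 8.04 CPM in its class. It did so barely, with a gap of 0.468 of the range against a critical value of 0.466. The rule was applied in CPM only. With the hormone genes taken out of the total, medaka54 was at 936 CPM, against 282 to 711 CPM in the others of its class.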

How the results depend on the processing

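No paired analysis was possible because the fish carry only running numbers, and no number is shared between classes. The alternatives without medaka7 and medaka135 over a whole sex were chosen after seeing the data. Depth limits the class II genes most, as orla-DFA had 0 to 38 counts in every fish but medaka135. The cause of each shift was not tested. Single fish were left out only from small classes, so that the females of 53 to 59, 64 to 74 and 131 to 179 dpf were always kept. The ranges below therefore do not show how far these pairs rest on single females. Leaving out 1 fish at a time, CD74 ranged from -1.06 to 0.054 for females of 37 to 39 over males of 38 dpf, from -0.64 to -0.27 for 53 to 59 over 57 dpf (-0.27 without medaka129), from -3.24 to -0.62 for 64 to 74 over 70 dpf, from 0.55 to 0.68 for 131 to 179 over 134 dpf and from -0.43 to 0.72 for males of 134 over 38 dpf. For orla-DCA these ranges were -1.31 to 1.48 (without medaka125), -0.13 to 0.40, -4.01 to 0.21, 0.01 to 0.43 and -0.69 to 2.13 (without medaka125), and for orla-DFA 0.54 to 1.13, -0.11 to 1.67, -2.91 to 4.399, -0.34 to 0.35 and 0.68 to 1.36.

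Genes called ranged from 0 to 2, from 1 to 45, from 2486 to 4918, from 41 to 134 and from 1 to 2535 in the same order. In the last, 1 gene was called without medaka138 or medaka139, 23 without medaka140 and 2535 without medaka128. For 131 to 179 over 134 dpf, 65, 41 and 42 were called without medaka137, medaka138 and medaka139. For 53 to 59 over 57 dpf, 2 were called without medaka129 or medaka130, 45 without medaka131 and 1 without medaka132. For 64 to 74 over 70 dpf, 2486 were called without medaka134, and for 37 to 39 over 38 dpf 2 without medaka14.

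DESeq2 called 383 genes for 37 to 39 over 38 dpf, 381 (edgeR 7) for 53 to 59 over 57 dpf, 332 for 131 to 179 over 134 dpf and 2957 (edgeR 1280) for the males. For 53 to 59 over 57 dpf, 11 were called with RLE factors or without hormone genes, 13 with no filter and 0 with total counts (4027 at an unadjusted p under 0.05), where CD74 was at -0.24. Total counts gave 7281 calls for 64 to 74 over 70 dpf (6979 higher and 302 lower, against 2248 and 1508 with TMM factors), 815 for the males (732 higher and 83 lower, against 964 and 316) and, for 131 to 179 over 134 dpf, 54 higher and 33 lower, against 16 and 87. For body length they gave 344 higher and 891 lower, against 140 and 1017. No filter gave 1937 calls for the males. At least 1 CPM in every library gave 1006 for 64 to 74 over 70 dpf, 221 for the males and 152 (against 388) for log2 age, and gave no value for class II genes it removed. With body length as a covariate, 10 genes were called for 131 to 179 over 134 dpf, and orla-DCA was at -0.20 there and at -0.10 for 53 to 59 over 57 dpf. With total counts, orla-DFA was at 0.32 for 131 to 179 over 134 dpf.

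Over the females, length alone called 6982 genes (CD74 slope 0.064) and age alone 6440 (CD74 0.60). Without medaka7, 419 genes were called for length (CD74 -0.020) and 13 for age (CD74 0.69, orla-DFA -0.035), and without the females of 249 to 375 dpf 240 for age. The adjusted p of orla-DCA ranged from 2.76e-05 to 0.208 for length, from 0.000134 to 0.229 for age and from 0.00664 to 0.766 for 64 to 74 over 70 dpf.

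Pearson r of CD74 with orla-DFA in females was 0.22 without the 2 farthest fish, 0.25 as deviations from the class mean and 0.28 outside the hormone genes, all no longer past the threshold. As deviations, females had rho 0.10 and r 0.17 with gb, rho 0.10 and r 0.19 with hbbe2, rho 0.069 with the hormone share (0.018 outside the hormone genes), r -0.042 with RNA integrity, r -0.25 with total count (-0.23 outside the hormone genes) and r 0.15 with genes detected. Without medaka7, RNA integrity passed, with rho 0.36 and r 0.37. In males without the 2 farthest fish, gb was at rho -0.26 and r -0.29, hbbe2 at rho -0.27 and r -0.27, and RNA integrity at rho 0.23. In males without medaka135, r was 0.60 with gb and 0.59 with hbbe2 (adjusted permutation p = 0.0894 for both), against 0.16 and 0.18 with all males. Outside the hormone genes, the median of CD74 was 423, 447, 454 and 1079 CPM in females of 37 to 39, 44 to 49, 53 to 59 and 249 to 277 dpf and 510 and 684 CPM in males of 57 and 134 dpf. With TMM factors it was 368 and 700.3 CPM in females of 53 to 59 and 249 to 277 dpf.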
